A study of Mus musculus with 24 samples.

Results

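Transcripts of 10 genes of glycerolipid and triglyceride synthesis were followed in interscapular brown adipose tissue (iBAT), a thermogenic fat depot that lies between the shoulder blades: Gpd1, Gpd1l, Gk, Gpam, Agpat2, Agpat3, Lpin1, Lpin2, Dgat1 and Dgat2. They were chosen by name for their place in the pathway, with earlier results of these data known. They are 10 of the 36144 genes in the count table. Polyadenylated RNA was sequenced from 24 mice aged 6 to 8 months in 4 groups of 6 (3 males and 3 females each): WT saline and WT DCZ (C57Bl/6J), and Th-Cre saline and Th-Cre DCZ (B6.129X1- Tht1(cre)Te/Kieg). Tissue was collected 30 minutes after saline or DCZ (deschloroclozapine), a ligand of muscarinic designer receptors. In Th-Cre mice, regulatory sequence of the tyrosine hydroxylase gene drives Cre recombinase in cells that make catecholamines, sympathetic neurons among them. By the series title, the aim was to activate the sympathetic neurons that project to iBAT. The designer receptor, how it was delivered and whether WT mice received it too are items not given in the sources used here. Each library came from 1 mouse.

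Triglyceride is built on a glycerol backbone. Gpd1 and Gpd1l encode cytosolic glycerol-3-phosphate dehydrogenases, which make glycerol 3-phosphate from a glycolytic intermediate, and Gk encodes glycerol kinase, which makes it from free glycerol. Gpam, the mitochondrial glycerol-3-phosphate acyltransferase, adds the first fatty acid, and the Agpat enzymes add the next to give phosphatidic acid. The lipins (Lpin1, Lpin2) remove the phosphate to give diacylglycerol, and Dgat1 and Dgat2 add the last fatty acid. In brown fat, the droplets made in this way hold the fatty acids that sympathetic signalling releases for heat production, and glycerol kinase is a known feature of thermogenic fat.

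RefSeq promoter windows on GRCm38.p6, from 250 bases before to 50 bases after a transcription start, were matched for 7 of the 10 genes (Gpam, Agpat2, Agpat3, Lpin1, Lpin2, Gpd1l and Gk). The windows of 4 genes are printed because their transcripts passed the test in at least 1 comparison below: Gpam and Gk between the sexes, Gpd1l and Lpin1 between the genotypes. Sequences run 5′ to 3′ on the gene's strand, and capitals mark matches, on either strand, to the motifs named after them.
Gpam, first start, chr19:55127189-55127488, minus strand: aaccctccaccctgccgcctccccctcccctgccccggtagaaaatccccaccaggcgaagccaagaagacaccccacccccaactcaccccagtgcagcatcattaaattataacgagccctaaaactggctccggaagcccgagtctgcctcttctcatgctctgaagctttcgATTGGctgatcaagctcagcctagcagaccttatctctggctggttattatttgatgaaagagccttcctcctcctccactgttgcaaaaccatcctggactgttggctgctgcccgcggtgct
Gpam, second start, chr19:55099428-55099727, minus strand: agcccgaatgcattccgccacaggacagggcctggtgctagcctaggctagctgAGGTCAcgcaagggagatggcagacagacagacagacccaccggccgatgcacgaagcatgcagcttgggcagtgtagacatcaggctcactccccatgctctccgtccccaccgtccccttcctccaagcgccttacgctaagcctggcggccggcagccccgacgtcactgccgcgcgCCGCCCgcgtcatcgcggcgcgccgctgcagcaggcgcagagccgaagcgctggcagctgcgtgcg
Gk, chrX:85776770-85777069, minus strand: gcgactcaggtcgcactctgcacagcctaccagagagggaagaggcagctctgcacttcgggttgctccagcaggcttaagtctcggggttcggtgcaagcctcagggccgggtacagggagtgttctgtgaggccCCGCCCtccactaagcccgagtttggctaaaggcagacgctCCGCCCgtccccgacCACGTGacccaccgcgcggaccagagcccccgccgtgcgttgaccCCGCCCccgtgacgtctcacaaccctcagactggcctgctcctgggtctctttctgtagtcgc
Gpd1l, chr9:114933938-114934237, minus strand: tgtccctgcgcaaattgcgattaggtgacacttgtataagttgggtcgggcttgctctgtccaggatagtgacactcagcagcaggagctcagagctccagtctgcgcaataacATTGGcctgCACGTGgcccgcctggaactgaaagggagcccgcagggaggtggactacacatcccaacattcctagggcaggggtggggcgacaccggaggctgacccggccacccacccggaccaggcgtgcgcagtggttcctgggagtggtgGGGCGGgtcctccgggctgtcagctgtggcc
Lpin1, chr12:16610917-16611216, minus strand: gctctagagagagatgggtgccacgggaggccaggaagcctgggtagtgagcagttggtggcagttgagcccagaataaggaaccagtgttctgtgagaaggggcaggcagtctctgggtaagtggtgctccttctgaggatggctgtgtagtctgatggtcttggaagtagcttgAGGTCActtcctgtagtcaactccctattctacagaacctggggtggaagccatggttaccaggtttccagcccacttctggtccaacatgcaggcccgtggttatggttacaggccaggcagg

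In all, 8 motifs were searched on both strands: the E-box CACGTG, the cAMP response element TGACGTCA, a sterol response element TCACCCCAC, an estrogen-related receptor element TCAAGGTCA, the nuclear receptor hexamer AGGTCA (which the previous motif contains), the CCAAT box CCAAT, the TATA box TATAAA and the GC box GGGCGG. In Gpd1l, an E-box begins 127 bases upstream of the start, next to a CCAAT box at 136 bases, and a GC box lies 20 bases into the transcript. In Gk, an E-box begins 58 bases upstream, between GC boxes at 114, 73 and 13 bases. In Lpin1 the match is a hexamer 74 bases upstream, and in Gpam it is a CCAAT box 74 bases upstream of the first start, with a hexamer and a GC box at 196 and 16 bases upstream of the second. Of 32851 windows of this length in the table, 7.15% hold the E-box, 16.3% the hexamer, 37.4% the CCAAT box and 35.7% the GC box. The cAMP response element (1.79% of all windows), sterol response element (0.551%), estrogen-related receptor element (0.423%) and TATA box (13.6%) have no match in the windows of the 7 genes. These matches describe letters in the windows only.

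Depth and tissue composition set the frame for all values. Total estimated counts were 11.9 to 22.9 M per library, and the 10 genes together took 0.774 to 1.23% of them. Ucp1, the uncoupling protein that defines brown fat, was at 1752 to 6533 CPM (counts scaled to a common library size) in every library. It was at 3843 to 6533 CPM in the 12 WT and at 1752 to 3981 CPM in the 12 Th-Cre libraries. The summed level of the 10 brown adipocyte markers was 7173 to 9859 CPM in WT mice given saline and 7492 to 10166 after DCZ, and in Th-Cre mice 5363 to 7346 after saline and 4623 to 7154 after DCZ. Skeletal muscle transcripts (13 of 13 markers tested, none at 0 in all libraries) stood out in 6 libraries, by a mean log2 CPM of the markers above 1: Th-Cre saline DN2086, DN2087 and DN2094, Th-Cre DCZ DN2091 and DN2075, and WT saline 12. The summed muscle level reached 290 CPM in WT mice given saline and 45.2 in WT mice given DCZ, and in Th-Cre mice 1487 and 617 CPM. The summed markers of other cell types ran over the 24 libraries from 687 to 1102 CPM for white adipocytes, 216 to 636 for fibroblasts and preadipocytes, 49.6 to 1153 for erythroid cells, 61.6 to 200.4 for macrophages and 1.98 to 9.99 for lymphocytes. Endothelial markers summed to 629 to 1149 CPM in WT mice given saline and 659 to 1031 after DCZ, against 623 to 696 and 626 to 766 CPM in Th-Cre mice. Library numbers 1 to 12 are all WT and 13 to 24 all Th-Cre, so genotype and library order cannot be told apart. No 2 libraries held identical counts. In whole tissue, fewer cells of a type and less RNA per cell cannot be told apart.

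All 10 genes were measured well above the filter on low counts, and their levels spanned a wide range. Per kilobase of annotated exon, Gpd1 was highest with a mean of 1940 CPM per kb over the 24 libraries. Agpat2 at 481 and Dgat2 at 473 followed, then Dgat1 at 75.5, Gpam at 69.4, Agpat3 at 57.6, Lpin1 at 30.8, Gk at 25.6, Gpd1l at 6.62 and Lpin2 at 0.862. The neighbours Agpat2 and Dgat2, Dgat1 and Gpam, and Lpin1 and Gk lie closer than 1 SD over libraries (coefficients of variation 15.3 and 18.5%, 14.5 and 23.1%, 27.0 and 37.4%), and Agpat3 lies within 1 SD of Gpam. The cytosolic dehydrogenase Gpd1 was far above its paralog Gpd1l, and Lpin1 far above Lpin2. With the longest coding transcript as the length, the order was the same except that Agpat3 came just before Gpam.

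The genes also differed in how much they varied between mice. Agpat3 was the steadiest, from 353 to 494 CPM over the 24 libraries (coefficient of variation 8.56%). Gk varied most, from 65.2 CPM in Th-Cre DCZ DN2072 to 317 CPM in WT DCZ 6, a 4.86-fold range. The plot of levels by group shows both, with every mouse as a point.

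**Figure D1:**
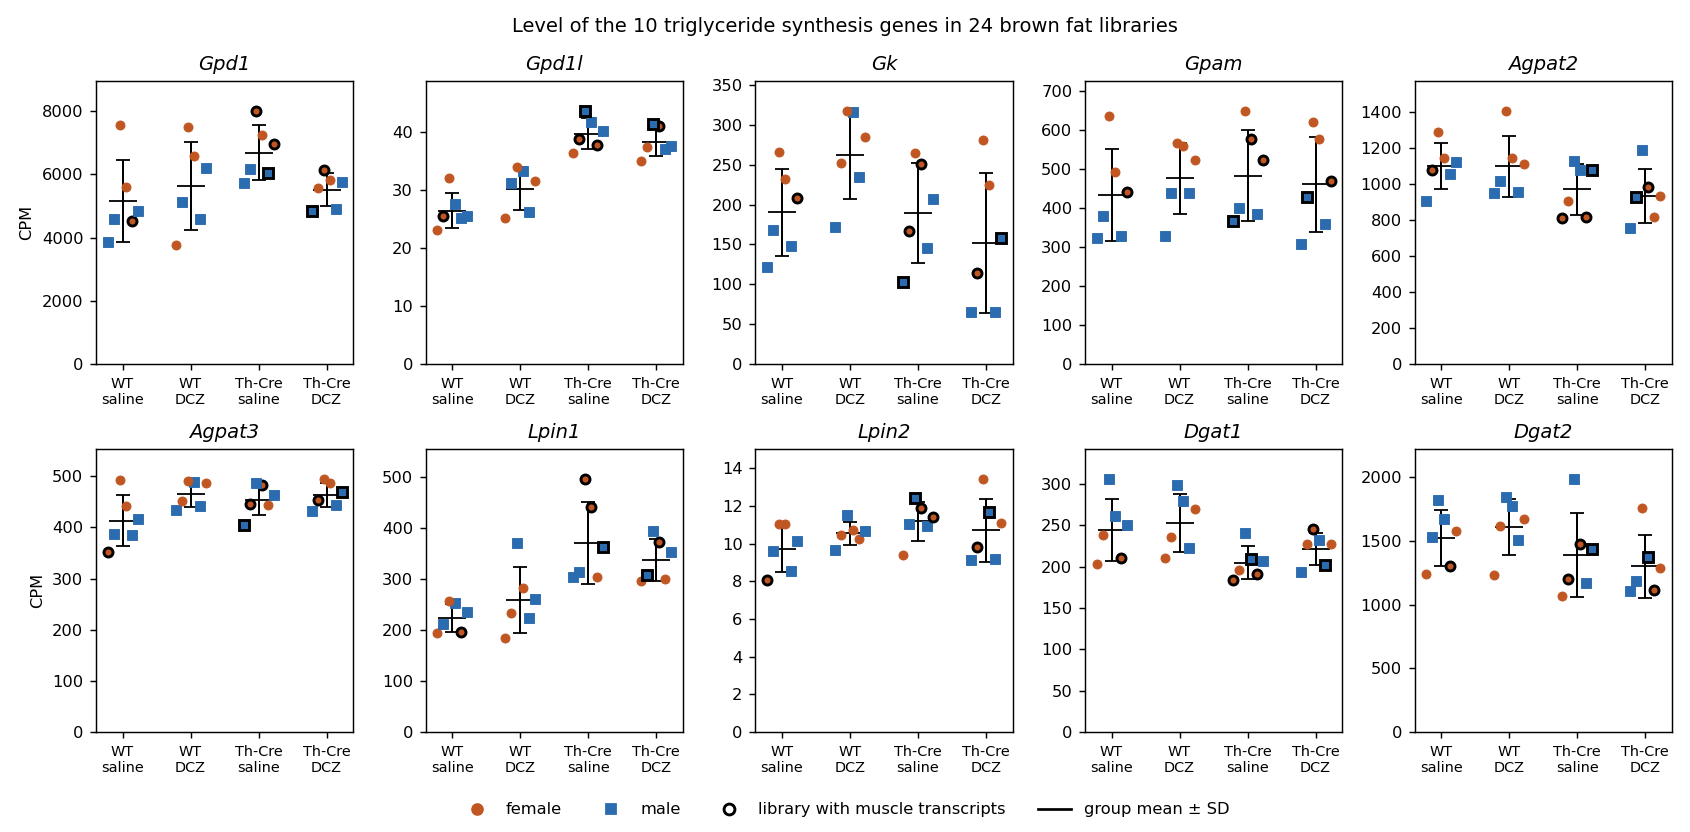
Level of each of the 10 genes in CPM (y axis, from 0) in the 4 groups of 6 mice (x axis), with 1 point per mouse, shape and colour for sex, a black ring for the 6 libraries with muscle transcripts, and the group mean ± SD. The Gpd1l points of both Th-Cre groups (35.0 to 43.5 CPM) lie above every WT point (23.1 to 33.9 CPM), and the Gk points of Th-Cre DCZ run from 65.2 to 281 CPM.

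The comparison the title names is DCZ against saline in Th-Cre mice. None of the 10 genes passed the threshold (adjusted p under 0.05 in edgeR's quasi-likelihood test over 13129 genes), against a background of 0.0229% of genes called. Of the 10, 1 had an unadjusted p under 0.05, as did 745 of all genes, and DESeq2 and limma-voom also called none of the 10. Fitted log2 fold changes ran from -0.38 to 0.12 with a median of -0.07, beside 0.00 for all genes tested. The sign was negative for 8 of the 10, while 50.2% of all genes were positive. The 10 genes share their libraries, so their signs here and in the comparisons below are not 10 separate observations.

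Among the genes that supply glycerol 3-phosphate, Gpd1 had the smallest p. Its levels in Th-Cre DCZ mice were 4910, 5765 and 4842 CPM in males and 5572, 5818 and 6149 in females. In Th-Cre saline mice they were 5714, 6041 and 6156 CPM in males and 7230, 7987 and 6955 in females. All 6 DCZ mice were below the saline mean of 6680 CPM, but the groups overlapped, and the log2 fold change was -0.27 ± 0.131 (SE, n = 6 and 6, adjusted p = 0.869). Gk had a log2 fold change of -0.38 ± 0.236 (adjusted p = 0.942). Its Th-Cre DCZ values were 65.2, 66.0 and 158 CPM in males and 281, 224 and 114 in females, so the 2 lowest libraries of the whole series and one of the higher ones came from the same group. For Gpd1l it was -0.05 ± 0.0798.

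The acylation and phosphatase steps had smaller fitted differences. Gpam averaged 460 CPM ± 121 (SD, n = 6) in DCZ mice against 483 ± 116 in saline mice. The log2 fold changes were -0.05 ± 0.116 (SE) for Agpat2, 0.03 ± 0.0679 for Agpat3, -0.14 ± 0.143 for Lpin1, and -0.06 ± 0.0997 for Lpin2. For the final step they were 0.12 ± 0.0922 for Dgat1 and -0.08 ± 0.134 for Dgat2. Adjusted p was 0.977 or more for each of these 7 genes and Gpd1l. The SEs bound what 6 mice a group could resolve: widest for Gk, narrowest for Agpat3. The sign of Lpin1 turned to 0.15 without the 6 libraries with muscle transcripts and to 0.11 in males only.

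In WT mice, DCZ against saline tests the ligand without Cre. Again none of the 10 genes passed the threshold, against 0.00762% of all genes called, and DESeq2 and limma-voom also called none. Of the 10 fitted differences 9 were positive (49.8% of all genes were), with a median log2 fold change of 0.14 beside 0.00 for all genes. An unadjusted p under 0.05 was seen for 3 genes (1137 of all genes did): Agpat3 at 0.17 ± 0.0679 (adjusted p = 0.527), Gpd1l at 0.19 ± 0.0808 (adjusted p = 0.529) and Gk at 0.51 ± 0.235 (adjusted p = 0.560). The Gk values after DCZ were 234, 316 and 171 CPM in WT males and 284, 317 and 252 in females. After saline they were 148, 168 and 121 CPM in males and 266, 232 and 208 in females. Of the 6 DCZ mice, 3 were above every saline mouse, and the groups overlapped. Of the 6 WT DCZ mice, 5 have library numbers 1 to 6 and 5 of the 6 WT saline mice numbers 7 to 12. Within numbers 1 to 6, Gk averaged 264 CPM in the 5 DCZ mice and was 266 CPM in the 1 saline mouse, a female. Within numbers 7 to 12 it was 252 CPM in the 1 DCZ mouse, also a female, and averaged 176 CPM in the 5 saline mice. Among females only, Gk within numbers 1 to 6 was 284 and 317 CPM after DCZ and 266 CPM after saline. In females of numbers 7 to 12 it was 252 CPM after DCZ and 232 and 208 CPM after saline. For Gpd1l, DCZ minus saline was -0.75 CPM within numbers 1 to 6 and -0.16 CPM within numbers 7 to 12. For Agpat3 these were -25.2 and 54.6 CPM. Each of these differences sets 1 female against 5 mice of both sexes, so library order, sex and DCZ cannot be separated in them.

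The genotype by DCZ interaction asks whether the DCZ difference itself differed between genotypes. None of the 10 genes passed the threshold (background 0.00762%), and none did in DESeq2 or limma-voom. Of the 10 interaction terms, 9 were negative (50.4% of all genes were positive), with a median log2 value of -0.20 beside 0.00 for all genes. An unadjusted p under 0.05 was seen for 3, as for 980 of all genes. They were Gk at -0.89 ± 0.333 (adjusted p = 0.607), Gpd1 at -0.41 ± 0.185 (adjusted p = 0.643) and Gpd1l at -0.24 ± 0.114 (adjusted p = 0.657). These 3 genes supply glycerol 3-phosphate, but they were picked by unadjusted p, and the step as a whole was not tested. The interaction is built from the same libraries as both DCZ comparisons, so its sign adds nothing to theirs. The plot of fold changes sets the 6 comparisons side by side.

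**Figure D2:**
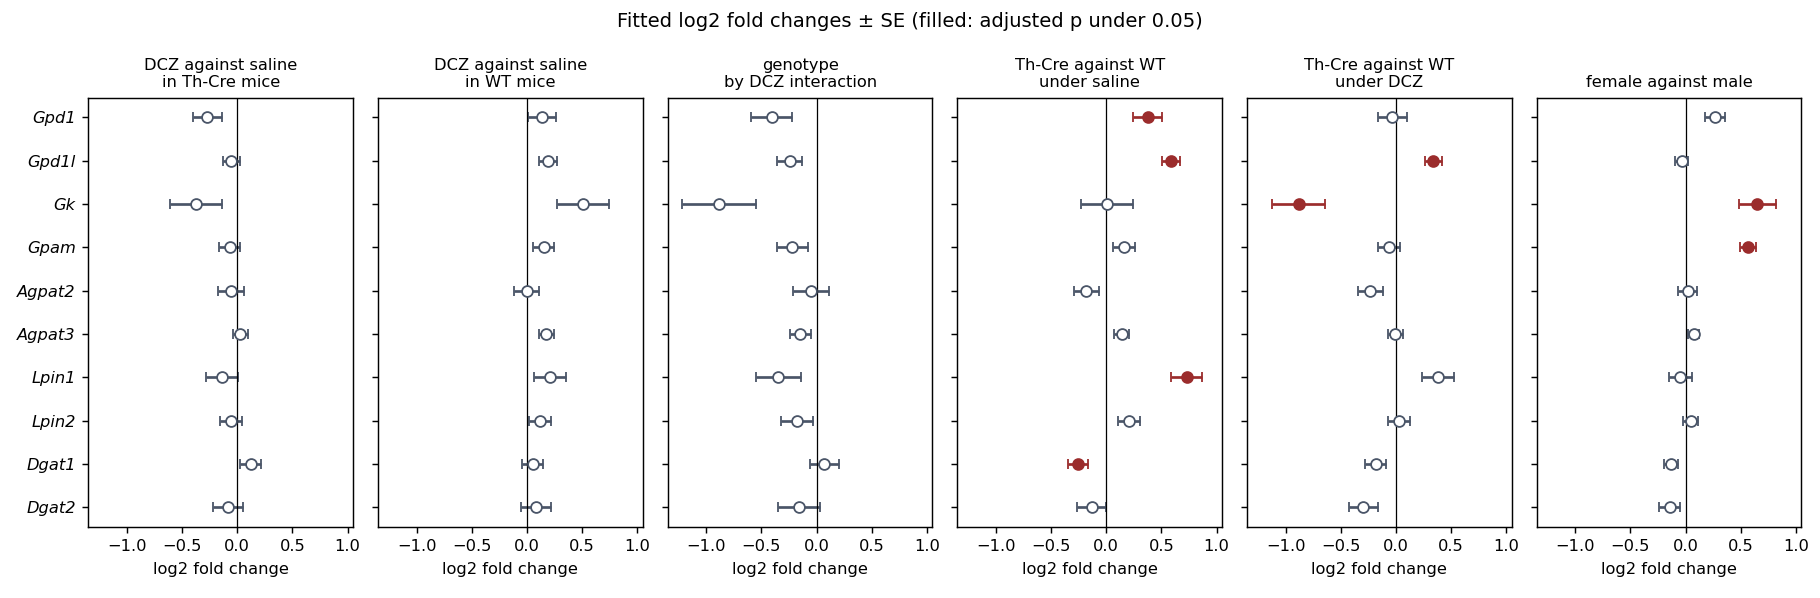
Fitted log2 fold change (x axis) ± SE of each of the 10 genes (rows) in 6 comparisons (panels), with filled red points for an adjusted p under 0.05. No point is filled in the 3 panels on DCZ, 4 are filled for genotype under saline, 2 for genotype under DCZ and 2 for sex.

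Between genotypes, genes of several steps changed. In saline-treated mice, 3 of the 10 genes were higher in Th-Cre than in WT mice (12.5% of all genes were) and 1 was lower (12.4%). The 4 of 10 stand beside 24.9% of all genes called. The median log2 fold change was 0.15, beside -0.01 for all genes. The genes that passed were Gpd1l, Lpin1, Gpd1 and Dgat1, from 3 different steps, and Gpam, Agpat2, Agpat3, Lpin2, Dgat2 and Gk did not pass. Gpd1l and Lpin1, 2 of the 10, had groups that did not overlap, as did 5.54% of all genes.

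Markers of several cell types moved with genotype too. Of 8 endothelial markers, 7 were lower in Th-Cre mice under saline, among them Emcn (-0.70 ± 0.130, adjusted p = 0.00149) and Tek (-0.46 ± 0.0956, adjusted p = 0.00255), and 2 were lower under DCZ (Kdr and Emcn). Of 10 brown adipocyte markers, 3 were lower under saline and 1 was higher, and 3 were lower under DCZ, with Ucp1 at -0.44 ± 0.126 (adjusted p = 0.0136) and -0.96 ± 0.127 (adjusted p = 0.000142). None of the 13 muscle markers passed under saline in edgeR, with a median log2 fold change of 2.56, and 3 were higher under DCZ. Of 6 lymphocyte markers, 2 were lower under saline and 3 under DCZ. Of 6 white adipocyte markers, 1 was lower under saline and 1 was higher under DCZ. No erythroid, fibroblast or macrophage marker passed in either comparison in edgeR. Apart from the fits without the muscle libraries and with the muscle score, the part of these shifts in the changes of the 10 genes was not tested.

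Gpd1l (chromosome 9, 114899341 to 114933987, minus strand, GRCm38; no annotated gene overlaps it) rose by 0.58 ± 0.0808 on the log2 scale (adjusted p = 0.000315). WT saline males were at 25.4, 25.1 and 27.5 CPM and females at 31.9, 23.1 and 25.4. Th-Cre saline males were at 41.6, 43.5 and 40.1 CPM and females at 36.3, 37.7 and 38.7. Every Th-Cre mouse was above every WT mouse, with males and females on the same side. After DCZ, in other mice, Gpd1l was again higher in Th-Cre by 0.34 ± 0.0800, 1.27-fold (adjusted p = 0.00939). WT DCZ mice were at 33.3, 31.1 and 26.2 CPM (males) and 33.9, 31.4 and 25.1 (females), against 37.4, 37.0 and 41.3 and 35.0, 37.4 and 40.9 in Th-Cre DCZ mice. The groups again did not overlap, as for 1 of the 10 genes and 3.48% of all genes. Gpd1l kept its call in all 24 fits that left out 1 library, under saline and under DCZ. Without the 6 libraries with muscle transcripts the difference was 0.57 under saline (adjusted p = 0.0296) and 0.28 under DCZ (adjusted p = 0.0974).

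Lpin1 (chromosome 12, 16535669 to 16610966, minus strand, GRCm38; no overlapping gene), the phosphatidate phosphatase that also acts as a transcriptional coactivator, rose by 0.73 ± 0.144 under saline, 1.66-fold (adjusted p = 0.00189). WT saline males were at 252, 212 and 235 CPM and females at 256, 194 and 196. Th-Cre saline males were at 314, 363 and 304 CPM and females at 305, 496 and 441. Lpin1 is also abundant in skeletal muscle, and the 3 Th-Cre saline libraries with muscle transcripts (363, 496 and 441 CPM) were the 3 highest of their group. The other 3 were at 304 to 314 CPM, above every WT saline mouse. WT saline 12, which also held muscle transcripts, was at 196 CPM, against a mean of 230 CPM in the other 5 WT saline mice. In Th-Cre DCZ mice the 2 libraries with muscle transcripts averaged 341 CPM and the other 4 averaged 336 CPM. Without the 6 libraries with muscle transcripts the genotype difference under saline was 0.41 (adjusted p = 0.110). With the muscle marker score as a covariate it was 0.59 (adjusted p = 0.00502). In that reduced set of 18 libraries, 0.813% of all genes were called in this comparison. After DCZ, Lpin1 averaged 338 CPM ± 41.8 in the Th-Cre group and 259 ± 64.4 in the WT group (SD, n = 6), a difference of 0.38 ± 0.143 (SE) that missed the threshold in edgeR (adjusted p = 0.0737) and passed in DESeq2 (adjusted p = 0.0469). WT DCZ 1, at 371 CPM, was the highest of its group, and without it the difference was 0.51 (adjusted p = 0.0124). Leaving out the highest mouse of the lower group widens a difference by itself, so the latter fit adds no support for a call.

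Gpd1 (chromosome 15, 99717515 to 99725005, plus strand, GRCm38) rose by 0.38 ± 0.131 under saline (adjusted p = 0.0374). WT saline mice were at 4827, 3876 and 4572 CPM (males) and 7567, 5603 and 4513 (females). The Th-Cre saline values given above, 5714 to 7987 CPM, were all above the WT mean of 5160 CPM, but WT female 2 was above 5 of the 6 Th-Cre mice. The call was lost when any of 9 libraries was left out (WT saline 7, 8, 9, 11 and 12, and Th-Cre saline DN2201, DN2087, DN2094 and DN2089), with an adjusted p of at most 0.0932. It was also lost without the 6 libraries with muscle transcripts (0.31, adjusted p = 0.291) and without the term for sex (0.37, adjusted p = 0.0756). After DCZ the genotypes were close, with 5509 CPM ± 525 for Th-Cre against 5629 ± 1380 for WT (SD, n = 6; -0.03 ± 0.131, adjusted p = 0.904). Gm16537, annotated on the opposite strand, shares 11% of the 31-base words of Gpd1 transcripts, and whether the counting used strand is not given in the sources used here.

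Dgat1 (chromosome 15, 76502015 to 76511953, minus strand, GRCm38; no overlapping gene), which esterifies diacylglycerol to triglyceride, fell by 0.26 ± 0.0922 on the log2 scale under saline, to 1.19-fold lower (adjusted p = 0.0448). WT saline mice were at 261, 306 and 250 CPM (males) and 203, 238 and 210 (females). Th-Cre saline mice were at 207, 209 and 240 CPM (males) and 196, 191 and 184 (females). All 6 Th-Cre mice were below the WT mean of 245 CPM, and the groups overlapped. The adjusted p was close to the threshold: leaving out any of 13 libraries raised it above 0.05, to at most 0.139. Those were WT saline 7, 8, 9 and 11, WT DCZ 10, Th-Cre saline DN2201, DN2099, DN2086, DN2087 and DN2094, and Th-Cre DCZ DN2205, DN2207 and DN2097. With RLE factors the adjusted p was 0.0516, and without the libraries with muscle transcripts the difference was -0.23 (adjusted p = 0.242). After DCZ the difference was -0.18 ± 0.0921 (adjusted p = 0.180). Dgat2, the other enzyme of this step (chromosome 7, 99153658 to 99182719, minus strand, GRCm38; no overlapping gene), had -0.13 ± 0.134 under saline (adjusted p = 0.494) and -0.29 ± 0.134 under DCZ (adjusted p = 0.141). Without Th-Cre DCZ DN2207, at 1760 CPM the highest of its group, the Dgat2 difference under DCZ was -0.42 (adjusted p = 0.0241). Leaving out the highest mouse of the lower group widens a difference by itself, so this fit adds no support for a call.

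Under DCZ, 1 of the 10 genes was higher in Th-Cre mice (Gpd1l, background 6.75%) and 1 was lower (Gk, background 7.02%), in all 2 of 10 against 13.8% of all genes. The median log2 fold change was -0.05, beside 0.00 for all genes. Gk (chromosome X, 85701937 to 85776819, minus strand, GRCm38) fell by 0.88 ± 0.237 on the log2 scale, 1.84-fold (adjusted p = 0.0175), from 262 CPM ± 55.7 in the WT group to 151 ± 87.5 in the Th-Cre group (SD, n = 6). Of the 6 Th-Cre DCZ mice, 4 were below every WT DCZ mouse, while Th-Cre DCZ DN2205 at 281 CPM was above 3 of the WT DCZ mice, so the groups overlapped. Under saline the genotypes had like means, 190 ± 62.7 in Th-Cre and 191 ± 54.4 CPM in WT mice (log2 fold change 0.00 ± 0.235, adjusted p = 0.992). The genotype difference under saline against that under DCZ is the interaction given above, which missed the threshold. The Gk call rested on the 2 lowest libraries: the adjusted p was 0.0527 without Th-Cre DCZ DN2072 (65.2 CPM) and 0.0516 without DN2097 (66.0 CPM), both males. In males only the difference was -1.31 (adjusted p = 0.0410) and in females only -0.46 (adjusted p = 0.508). Without the term for sex it was -0.79 (adjusted p = 0.0822), and in a fit of only the 12 DCZ libraries -0.88 (adjusted p = 0.0571). On the opposite strand, 2 annotated genes overlap Gk (Gm14767 and Gm14764), and 2.18% of its 31-base words occur in other genes.

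The remaining genes did not pass between genotypes. Gpam (chromosome 19, 55067268 to 55127238, minus strand) had log2 fold changes of 0.16 ± 0.0975 under saline and -0.06 ± 0.0974 under DCZ. For Agpat2 (chromosome 2, 26593057 to 26604417, minus strand, overlapped on the other strand by Egfl7) they were -0.18 ± 0.116 and -0.23 ± 0.116. Egfl7, an endothelial marker, had -0.57 ± 0.127 (adjusted p = 0.00371) and -0.36 ± 0.127 (adjusted p = 0.0555). Of the 31-base words of Agpat2, 1.56% occur in Egfl7, and the part of Egfl7 reads in the Agpat2 values was not tested. Agpat3 (chromosome 10, 78269178 to 78352489, minus strand) had 0.14 ± 0.0679 and -0.01 ± 0.0679. For Lpin2 (chromosome 17, 71182560 to 71249817, plus strand) they were 0.20 ± 0.100 and 0.02 ± 0.0993, at only 8.07 to 13.4 CPM (114 to 261 counts per library). The Agpat3 difference under saline passed (0.20, adjusted p = 0.0245) without WT saline 2, its group's highest value at 493 CPM. That removal lowers the lower group and widens the difference by itself, so it adds no support for a call.

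**Figure D3:**
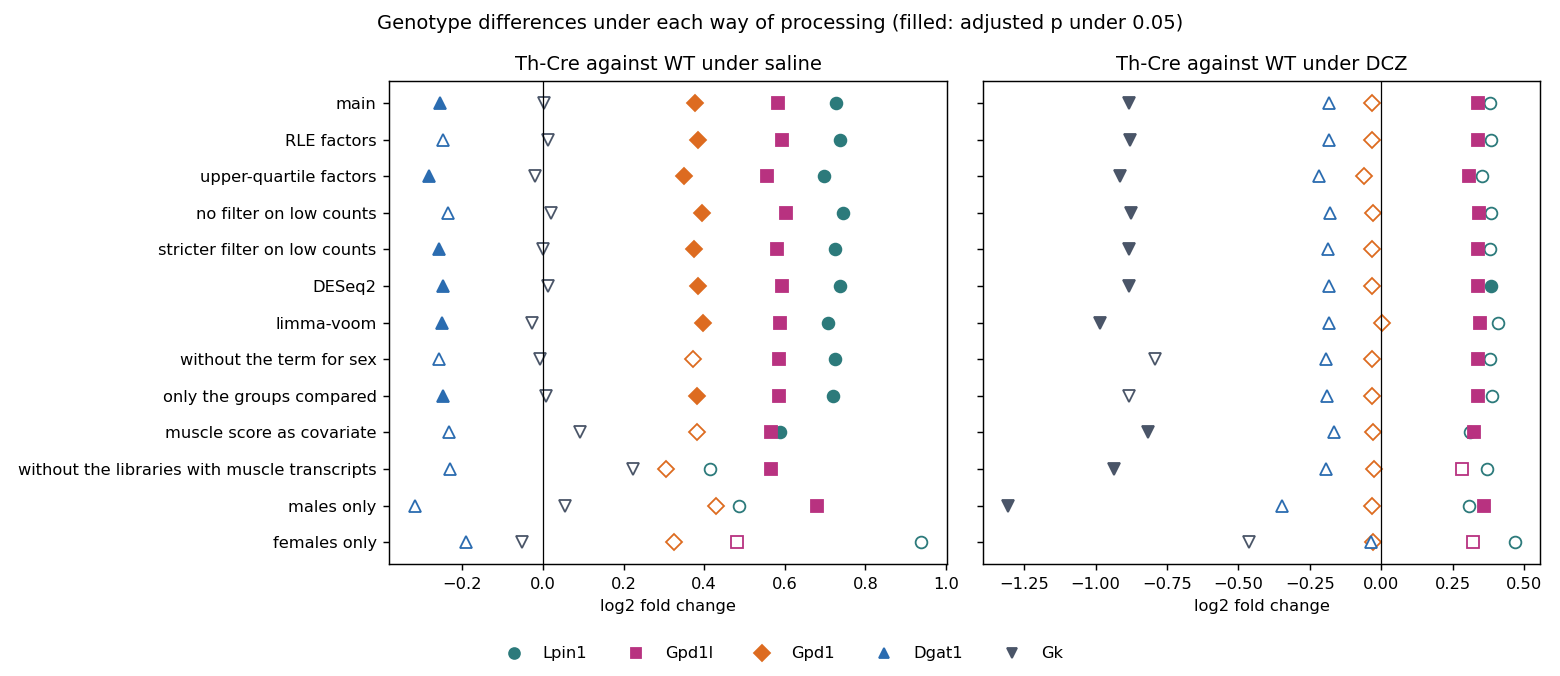
Log2 fold change of Lpin1, Gpd1l, Gpd1, Dgat1 and Gk between Th-Cre and WT mice (x axis) under saline (left) and DCZ (right), in the main fit and under 12 other ways of processing or choosing libraries (rows), with filled symbols for an adjusted p under 0.05. Gpd1l is filled in 12 of the 13 rows under saline, whereas the filled Lpin1 symbol of the main fit (0.73) is open at 0.41 without the libraries with muscle transcripts.

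Sex, balanced within every group, changed 2 of the 10 genes, both higher in females (4.11% of all genes were higher and 3.95% lower, 8.07% in all). The median log2 fold change of the 10 was 0.03, beside 0.00 for all genes. Gpam rose by 0.57 ± 0.0691 in females, 1.48-fold (n = 12 and 12, adjusted p = 1.22e-05). Males ranged from 307 to 437.5 CPM with a median of 373, and females from 440.3 to 647 CPM with a median of 563. Every female was above every male. The sexes did not overlap for 1 of the 10 genes and, counting both directions, for 0.137% of all genes. The lowest female, WT saline 12 at 440 CPM, and the highest male, WT DCZ 3 at 438 CPM, nearly met.

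Cell type markers also differed by sex. Of 10 brown adipocyte markers, 3 were higher in females, namely Ucp1 (0.33 ± 0.0889, adjusted p = 0.0223), Dio2 (0.54 ± 0.153, adjusted p = 0.0288) and Elovl3 (0.89 ± 0.154, adjusted p = 0.000885), and Cidea was lower. The summed level of the 10 was 5246 to 10166 CPM in females and 4623 to 9339 CPM in males. Of 13 muscle markers, 8 were higher in females (median log2 fold change of the 13, 3.41), whose summed level was 6.80 to 1487 CPM against 3.17 to 92.6 CPM in males. Retn of the white adipocyte markers (0.59 ± 0.157, adjusted p = 0.0208) and Cd163 of the macrophage markers (0.63 ± 0.196, adjusted p = 0.0458) were higher in females. Cldn5 of the endothelial markers (-0.79 ± 0.179, adjusted p = 0.00729) and Dcn of the fibroblast markers (-0.58 ± 0.0876, adjusted p = 0.000190) were lower. No erythroid or lymphocyte marker passed in edgeR. The part of the markers other than those of muscle in the sex differences of the 10 genes was not tested.

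The Gpam difference appeared in each group. WT saline males were at 323, 378 and 328 CPM and females at 634, 493 and 440. WT DCZ males were at 437, 438 and 328 CPM and females at 558, 524 and 567. Th-Cre saline males were at 399, 368 and 384 CPM and females at 647, 577 and 521. Th-Cre DCZ males were at 307, 360 and 428 CPM and females at 619, 576 and 469. In all 4 groups the 3 females were above the 3 males. In a model with a mean for each sex in each group, the difference was 0.53 ± 0.103 in WT (adjusted p = 0.00743) and 0.60 ± 0.103 in Th-Cre mice (adjusted p = 0.00274), and the sex by genotype interaction was 0.07 ± 0.145 (adjusted p = 0.945). The call held in all 24 fits that left out 1 library and, at 0.66 (adjusted p = 6.43e-05), without the libraries with muscle transcripts.

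Gk rose by 0.65 ± 0.167 in females, 1.57-fold (adjusted p = 0.0176), from 159 ± 70.8 CPM (SD, n = 12) in males to 238 ± 55.2 in females. Males had a median of 153 CPM (65.2 to 316) and females of 251 CPM (114 to 317). The sexes overlapped, although 11 of 12 females were above the male mean. Within genotypes neither difference passed: 0.47 ± 0.232 in WT (adjusted p = 0.326) and 0.84 ± 0.234 in Th-Cre mice (adjusted p = 0.0660), with an interaction of 0.37 ± 0.329 (adjusted p = 0.872). The call held in all 24 fits that left out 1 library.

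Gpd1 was at 6271 ± 1283 CPM (SD, n = 12) in females and 5218 ± 742 in males, a log2 difference of 0.27 ± 0.0926 (SE) that missed the threshold in edgeR (adjusted p = 0.0769) and passed in DESeq2 (adjusted p = 0.0407). It also passed in edgeR without WT DCZ 6, a female at 3774 CPM and the lowest of all 24 libraries (0.32, adjusted p = 0.00989). The same was true without WT DCZ 1 (adjusted p = 0.0483) and without WT saline 12 (adjusted p = 0.0489). Leaving out a low female or a high male widens this difference by itself, so these fits add no support for a call. Agpat2 had sex differences of opposite sign in the genotypes, 0.26 ± 0.0932 in WT (adjusted p = 0.155) and -0.22 ± 0.0932 in Th-Cre mice (adjusted p = 0.238). Its sex by genotype interaction was -0.48 ± 0.132 with an adjusted p of 0.438, and none of the 13129 genes passed that edgeR test (background 0%), with 900 at an unadjusted p under 0.05. WT females were at 1078 to 1403 CPM and WT males at 906 to 1121, whereas Th-Cre females were at 810 to 984 and Th-Cre males at 758 to 1187. Fitted differences of the other 6 genes lay between -0.14 and 0.07 with an adjusted p of 0.228 or more.

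**Figure D4:**
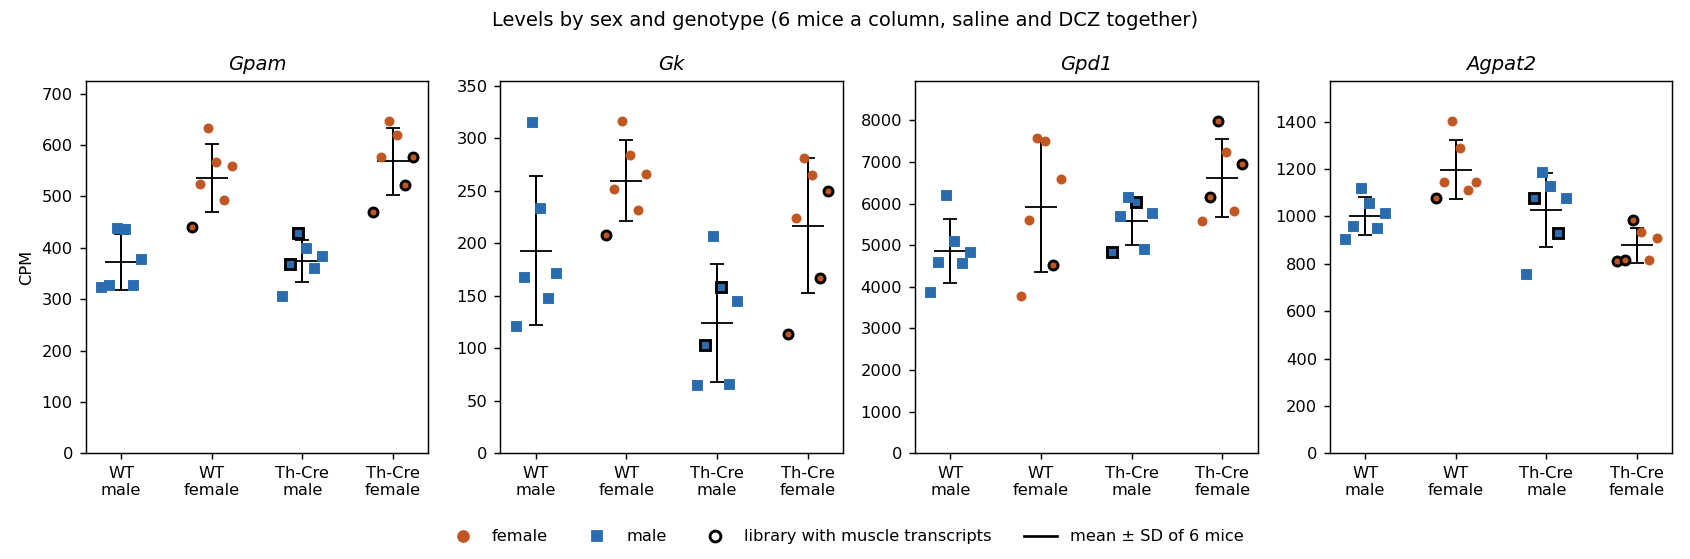
Level in CPM (y axis, from 0) of Gpam, Gk, Gpd1 and Agpat2 by genotype and sex (x axis, 6 mice a column, saline and DCZ together), with the mean ± SD and a black ring for libraries with muscle transcripts. All 12 females lie at 440.3 CPM or more for Gpam and all 12 males at 437.5 CPM or less, whereas the sexes overlap for Gk, Gpd1 and Agpat2.

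Within a group and sex, the genes could still vary together from mouse to mouse. After the mean of each group and sex was subtracted from log2 CPM, 45 pairs of genes were compared over the 24 libraries with 100000 permutations within group and sex, and p-values were adjusted over the 45 pairs. Only 1 pair passed: Lpin1 and Gpd1, with Pearson's r of 0.73 (permutation p = 0.00022, adjusted p = 0.0099) and Spearman's rho of 0.77 (permutation, adjusted p = 0.0482). Without the 2 libraries farthest from the Lpin1 median r was 0.79. Without the libraries with muscle transcripts r was 0.88 in 18 libraries, with an adjusted p of 0.0567. Gpam and Gk, the 2 genes higher in females, had r of 0.69 (permutation p = 0.00312, adjusted p = 0.0702) and rho of 0.71, and r of 0.57 without the libraries with muscle transcripts (adjusted p = 0.461). Of the 45 pairs, 31 had a positive r, and the median r was 0.20. Values of 1 library share its depth and its scaling.

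**Figure D5:**
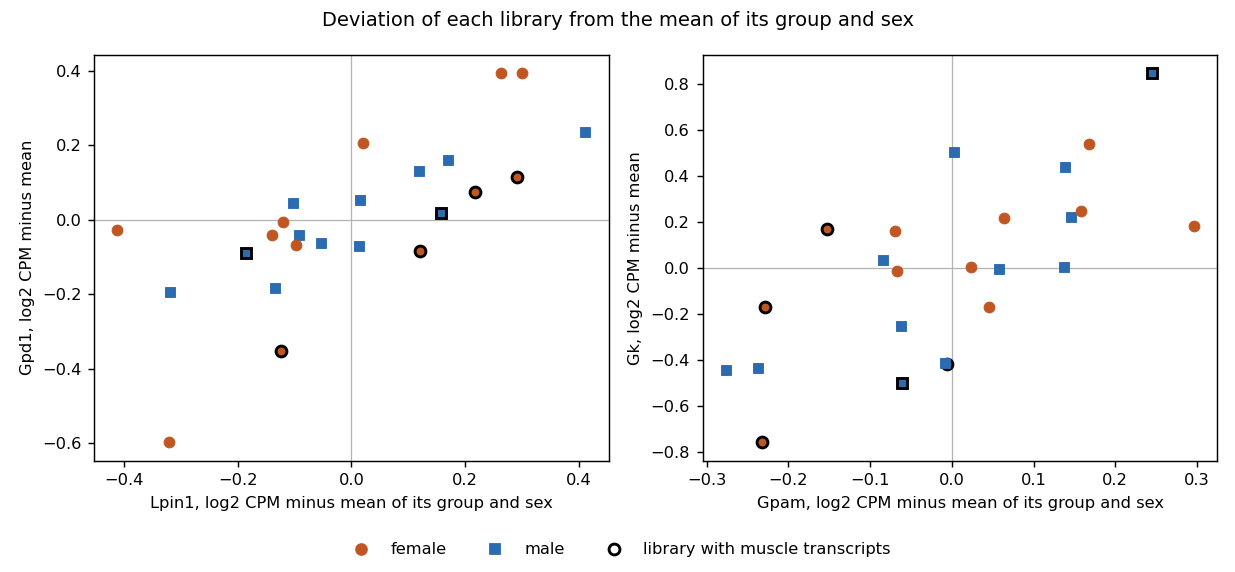
Deviation of each library from the mean log2 CPM of its group and sex, for Gpd1 (y axis) against Lpin1 (x axis) on the left and for Gk (y axis) against Gpam (x axis) on the right, with 1 point per mouse and a black ring for libraries with muscle transcripts. Points run from lower left to upper right in both panels (r of 0.73 and 0.69 over 24 libraries).

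Among 10920 genes with a mean log2 CPM of at least 1, those whose deviations were most like each of the 10 genes are given as a description (2 genes each, for Lpin1 only the first), by Pearson's r over the 24 libraries. For Gk they were Bnip3l (0.94), which encodes a mitophagy receptor, and Uhrf1bp1l (0.94). Without the libraries with muscle transcripts these 2 values were 0.76 and 0.78 over 18 libraries. For Gpam they were Gas1 (0.93) and Arhgef12 (0.87). Gpd1 was most like Acot11 (0.88), an acyl-CoA thioesterase gene, and Hk2 (0.87), which encodes hexokinase 2, the enzyme that phosphorylates glucose. Gpd1l was most like Fam20b (0.89) and Prkacb (0.86), a catalytic subunit of protein kinase A. Dgat2 was most like Ces1d (0.87), a carboxylesterase gene, and Idh2 (0.86), the mitochondrial isocitrate dehydrogenase. Lpin1 was most like Slc25a32 (0.85). The nearest genes were Mvd (0.85) and AI837181 (0.82) for Agpat2, Echs1 (0.86) and Arfgef2 (0.85) for Agpat3, Zfp113 (0.84) and Nr2c2 (0.83) for Lpin2, and Gm5617 (0.86) and Tomm40 (0.85) for Dgat1. Without the libraries with muscle transcripts, r of Lpin2 was 0.75 with Zfp113 and 0.69 with Nr2c2. Other values fell or rose, such as 0.77 for Agpat3 with Arfgef2 and 0.93 for Gpd1l with Fam20b.

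The pathway around the 10 genes was read from 5 lists with 70 genes, of which 62 were tested. Gpat2, Mogat2, Gk2, Dgat2l6, Aqp3, Aqp9, Acsl6 and Fitm1 had too few reads. Ppargc1a and Cidea also belong to the brown adipocyte markers. None of the 62 changed with DCZ in either genotype or in the interaction in edgeR, DESeq2 or limma-voom, beside the backgrounds given above. An unadjusted p under 0.05 was seen for 5 of the 62 in Th-Cre mice, 6 in WT mice and 3 in the interaction. At that unadjusted cut the shares of all genes were 5.67, 8.66 and 7.46%. The gene with the smallest p of each of the 5 lists, for DCZ against saline in Th-Cre mice, was in turn Agpat4 (0.50 ± 0.241, adjusted p = 0.878), Aqp7 (0.18 ± 0.0720, adjusted p = 0.730), G0s2 (-0.52 ± 0.242, adjusted p = 0.848), Tamm41 (-0.28 ± 0.104, adjusted p = 0.692) and Ppargc1a (-0.38 ± 0.185, adjusted p = 0.878). In WT mice the smallest p of each list was that of Gpat4 (0.23 ± 0.0900, adjusted p = 0.527), Acsl1 (0.38 ± 0.100, adjusted p = 0.510), Fitm2 (0.27 ± 0.0705, adjusted p = 0.510), Selenoi (0.18 ± 0.0993, adjusted p = 0.596) and Ppargc1a (0.28 ± 0.184, adjusted p = 0.640). For the interaction, list by list, it was that of Tmem68 (-0.34 ± 0.149), Acsl1 (-0.35 ± 0.142), Cnep1r1 (-0.18 ± 0.114), Tamm41 (-0.28 ± 0.145) and Ppargc1a (-0.66 ± 0.261), with adjusted p of 0.607 to 0.731.

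Under saline, 21 of the 62 genes differed between genotypes, beside 24.9% of all genes. Without the 6 libraries with muscle transcripts none did, beside 0.813% of all genes. Of 11 other enzymes of the same steps, 2 were higher in Th-Cre mice and 1 lower (median -0.07). Gpd2, the mitochondrial glycerol-3-phosphate dehydrogenase, rose by 0.71 ± 0.168, Tmem68 rose by 0.41 ± 0.106, and the acyltransferase gene Agpat5 fell by 0.30 ± 0.0746. Of 11 genes that supply glycerol and acyl-CoA, 3 were higher and 1 lower (median 0.23). The acyl-CoA synthetases Acsl1 and Acsl3 rose by 0.41 ± 0.101 and 0.70 ± 0.177. Pck1, which encodes the enzyme of glyceroneogenesis, rose by 0.33 ± 0.107, and the fatty acid binding protein gene Fabp4 fell by 0.29 ± 0.0767.

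Of 11 genes of lipid droplet assembly and lipin control, 3 were higher and none lower under saline (median 0.04). They were the droplet coat genes Plin4 (0.40 ± 0.0818) and Plin1 (0.33 ± 0.0864) and Fitm2 (0.29 ± 0.0706), needed for droplet formation. Of 18 genes of the phospholipid branches, 3 were higher and 5 lower (median -0.04). The lipid phosphate phosphatases Plpp1 and Plpp3 fell by 0.88 ± 0.167 and 0.48 ± 0.119, Ptpmt1 fell by 0.29 ± 0.0806, and Pcyt1a, which encodes the rate-limiting enzyme of phosphatidylcholine synthesis, rose by 0.34 ± 0.0850. Of 11 regulators, 2 were higher and 1 lower (median 0.16). The fatty acid receptor Ppara rose by 0.83 ± 0.195 and the lipogenic factor Srebf1 by 0.40 ± 0.130, while Nr1h3 (liver X receptor alpha) fell by 0.26 ± 0.0735.

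Under DCZ, 13 of the 62 genes differed between genotypes, beside 13.8% of all genes. Without the libraries with muscle transcripts 4 did, and the share of all genes in that fit is not given here. Leaving out 1 library lowered the 13 to 8 (WT DCZ 3), 4 (WT DCZ 5), 8 (WT DCZ 10), 7 (Th-Cre DCZ DN2072) or 6 (Th-Cre DCZ DN2075). Agpat5 (-0.27 ± 0.0737), Nr1h3 (-0.42 ± 0.0734), Plpp1 (-0.59 ± 0.166), Plin4 (0.32 ± 0.0817), Pcyt1a (0.44 ± 0.0848) and Ppara (0.88 ± 0.193) passed here too, with the sign they had under saline. The others were Fabp3 (-0.50 ± 0.158), the seipin gene Bscl2 (-0.28 ± 0.0847), the lipin phosphatase gene Ctdnep1 (-0.19 ± 0.0578), Tamm41 (-0.34 ± 0.103), Pemt (-0.50 ± 0.153) and Insig1 (0.77 ± 0.206). The last of the 13, Plpp3 (-0.37 ± 0.119), falls outside the naming rule for this comparison and was chosen after its values were seen.

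Between the sexes, 8 of the 62 genes differed, beside 8.07% of all genes. In females Acsl5 rose by 0.56 ± 0.144 and Nr1h3 by 0.23 ± 0.0519. Aqp7, the glycerol channel, fell by 0.20 ± 0.0509, Fabp4 by 0.18 ± 0.0542, Dbi by 0.23 ± 0.0706, Plin4 by 0.22 ± 0.0578, the droplet fusion gene Cidea by 0.19 ± 0.0452 and the choline kinase gene Chkb by 0.24 ± 0.0541. None of the 11 other enzymes of the same steps passed, and the smallest p among them was that of Mogat1 (0.25 ± 0.0904, adjusted p = 0.0850).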

How the data were processed

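RNA of iBAT from 24 mice was measured by polyA RNA-seq. The tool kallisto 0.44.0 and the build GRCm38.p6 are named per the submitters' processing notes. Which transcripts were indexed and whether strand was used is not stated in these sources, and overlapping genes could share reads. The main table, deposited by the authors, holds estimated counts per gene symbol as whole numbers, and these were tested as deposited. Tables of normalized signal deposited by the authors for each genotype equal the count divided by 1 factor per library and served as an alternative within a genotype. The authors also deposited the count of reads pseudoaligned per library and their percent (84.2 to 88.7).

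Of 36144 genes, 13364 had no read, and filterByExpr by group kept 13129, with 99.9% of reads. A quasi-likelihood model for each gene (edgeR 4.0.16 in R 4.3.3) covered the 24 libraries, with TMM sizes, group means and an additive sex term. The p-values were adjusted by Benjamini-Hochberg over all 13129 genes, and “changed” means an adjusted p under 0.05. Every adjusted p with no other method named comes from this fit. The SE is the absolute log2 fold change over the root of the F statistic. CPM use TMM sizes, and log2 CPM a prior count of 2. The common biological coefficient of variation was 15.6%. The scripts were tested on simulated data. Alternatives were RLE and upper-quartile factors, no filter and a stricter filter (CPM of at least 1 in 12 libraries), DESeq2 1.42.0, limma-voom (limma 3.58.1), other terms, subsets of libraries and leaving out each library.

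The members, the lists and the comparisons were chosen with earlier results of these data known. The fit with a mean for each sex in each group was added after seeing the data. Named genes are all 10 members, and of each list and comparison up to 4 genes past the threshold with the smallest adjusted p, or otherwise the 1 with the smallest p. Gene positions and exon lengths come from GENCODE M21 on GRCm38, which held 35933 of the 36144 symbols (99.4%), and promoter windows from RefSeq on GRCm38.p6. Marker lists of 8 cell types described tissue makeup. The gene second most like Lpin1 is not reported here.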

Additional observations from a re-analysis of the deposited data

How the results depend on the processing

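Across 60 pairs of a gene and a comparison, 38 kept their sign in every fit, and the 8 pairs past the threshold did so. The number of the 10 genes changed by DCZ, and by the interaction, stayed at 0 in every fit. For genotype under saline (4 of 10) it was 2 without the term for sex, 2 with the muscle score, 1 without the libraries with muscle transcripts, 1 in males and 0 in females, and 2 to 5 when 1 library was left out. For genotype under DCZ (2 of 10) it was 1 without the term for sex, 1 without the libraries with muscle transcripts, 1 with only the groups compared and 0 in females, and 1 to 3 when 1 library was left out. For sex (2 of 10) it was 1 in WT and 1 in Th-Cre libraries, both Gpam. The number of gene pairs whose correlation passed the threshold fell from 1 to 0 without the libraries with muscle transcripts. For that pair, Lpin1 and Gpd1, r was 0.88 in those 18 libraries, against 0.73 in all 24. Of the 62 genes around the pathway, 21 differed by genotype under saline, with 4 in males and 0 in females. Without the libraries with muscle transcripts the count was 0, in a fit that called 0.813% of all genes against 24.9% in the main fit. Under DCZ the 13 became 4 without those libraries, 6 with only the groups compared, 7 in males, 0 in females and 4 to 18 when 1 library was left out. For sex the 8 became 0 in WT and 1 in Th-Cre libraries. For DCZ in WT mice it was 0 to 1, with the 1 only without WT saline 2. Subsets by sex hold 12 libraries and those without muscle transcripts 18, so fewer mice entered those fits. For the other subsets the share of all genes called is not given here. Whether a shift is particular to these genes cannot be read from the counts. The cause of the other shifts was not tested.

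The log2 fold changes that changed sign were all of genes that had not passed. In females only they were, for DCZ in Th-Cre mice, 0.11 for Agpat2, 0.071 for Lpin2, 0.15 for Dgat2 and 0.0092 for Gpd1l. Also in females, they were 0.061 for Agpat2 with DCZ in WT mice, and, for the interaction, 0.048 for Agpat2, 0.0078 for Lpin2 and 0.014 for Dgat2. For genotype in females they were -0.052 for Gk under saline and, under DCZ, 0.010 for Gpam and 0.00056 for Agpat3. In males only they were, for DCZ in Th-Cre mice, -0.0089 for Agpat3, 0.11 for Lpin1 and -0.066 for Dgat1. In males, Dgat1 had -0.035 for DCZ in WT mice and -0.030 for the interaction, Agpat2 0.088 for genotype under saline and Lpin2 -0.078 for genotype under DCZ. Without the libraries with muscle transcripts, DCZ in Th-Cre mice gave -0.026 for Agpat3, 0.15 for Lpin1 and 0.0034 for Lpin2. Agpat2 with DCZ in WT mice was 0.00087 with RLE factors, 0.00087 in DESeq2 and 0.010 without a filter. Gk for genotype under saline was -0.021 with upper-quartile factors, -0.027 in limma-voom and -0.0078 without the term for sex. For genotype under DCZ, Lpin2 was -0.0059 with upper-quartile factors, Gpd1 0.0029 in limma-voom and Agpat3 0.015 with the muscle score. For sex, Th-Cre libraries gave -0.22 for Agpat2 and 0.11 for Lpin1, and WT libraries 0.022 for Gpd1l. When 1 library was left out, the range crossed 0 for Agpat3 (-0.0025 to 0.051) and Dgat2 (-0.21 to 0.024) with DCZ in Th-Cre mice, and for Agpat2 with DCZ in WT mice (-0.085 to 0.048) and in the interaction (-0.14 to 0.028). It did so for Gk under saline (-0.12 to 0.096), for Agpat3 (-0.026 to 0.017), Lpin2 (-0.047 to 0.065) and Gpd1 (-0.14 to 0.035) by genotype under DCZ, and for Agpat2 (-0.019 to 0.062) and Lpin1 (-0.098 to 0.014) by sex.

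No paired analysis was possible because the mouse numbers in the labels are not shared between groups. Depth limited Lpin2 most, with 114 to 261 counts per library. For each gene and group, the gap of the lowest and of the highest CPM to its neighbour was divided by the range. Of 40 such sets of 6 mice, 0 passed the critical value of 0.625, so no single mouse was flagged as outlying.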
